A study of Mus musculus with 13 samples.

Results

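The genes described here are the transcriptional co-activators YAP (Yap1) and TAZ (Wwtr1), 7 genes known as their targets (Ctgf, Cyr61, Thbs1, Amotl2, Crim1, Nt5e and Ankrd1) and the stretch-gated ion channel Piezo1. They were chosen by name as known genes of the pathway, with earlier results of these data known, and make up 10 of the 21950 genes of the bulk table and 10 of the 28693 genes of the single-cell matrices. In 9 of the 10 genes the bulk values were high enough to be tested. Ankrd1 was listed at 0 in every bulk library.

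YAP and TAZ carry mechanical signals to the nucleus. In the Hippo pathway the MST and LATS kinases phosphorylate them and hold them in the cytoplasm, whereas a stretched cell, a stiff substrate or high actomyosin tension lets them enter the nucleus and switch on genes through TEAD transcription factors. In mouse epidermis YAP is known to favour proliferation of basal keratinocytes, and abdominal skin is stretched as a pregnancy proceeds.

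The study measured mouse abdominal epidermis in pregnancy, in 9 bulk RNA libraries and 4 droplet single-cell libraries. The bulk libraries came from interfollicular basal keratinocytes sorted as CD49f positive and CD34 negative cells, after the skin had been trypsinized at 37 °C. They form 3 groups of 3: Tbx3 conditional knockout at gestation day 16 (cKO dpc16; K14creERT2;Tbx3flox/flox), WT at gestation day 16 (WT dpc16) and WT non-pregnant (WT NP). The single-cell libraries came from epidermis of Tbx3creERT2; R26H2B EGFP mice, 1 library each from NP, dpc16, post partum day 6 (dpp6) and post partum day 40 (dpp40) skin. All mice were C57BL/6. In the cKO, Cre recombinase fused to a tamoxifen-responsive receptor is driven by the keratin 14 promoter, so deletion is directed at keratin 14 cells and their progeny and depends on an induction whose schedule the labels do not give. All 4 single-cell libraries carry the Tbx3 Cre knock-in and an EGFP reporter, and none is WT or cKO.

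Table columns headed WT were read as WT dpc16 by exclusion. Summed FPKM (fragments scaled by transcript length and library size) lay between 785636 and 847693 per bulk library. Tbx3, the targeted gene, had 4.81, 1.65 and 4.89 FPKM in the cKO libraries, 16.96, 15.3 and 23.0 in WT dpc16 and 8.96, 6.38 and 8.12 in WT NP, and it fell in the cKO by 2.09 on the log2 scale (limma, adjusted p = 0.0124). Of the sort markers, Itga6, which encodes CD49f, lay at 277 to 443 FPKM and Cd34 at 0 to 2.23 FPKM, and the basal keratin gene Krt5 at 5822 to 14070 FPKM. The 4 single-cell libraries held 39767733 to 74289307 UMIs (unique molecular identifiers, counted molecules) in 6491 to 12853 kept cells, and any pair of libraries shared 75 to 154 cell barcodes. No label states that the libraries of one group are separate animals, and the p-values reflect only differences among these libraries, which could be technical. Library numbers below are column numbers and were not taken to pair libraries across groups.

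Sequences upstream of the members were examined because TEAD factors bind the core letters GGAATG. RefSeq promoter windows of build GRCm38.p6 were at hand for 8 of the 10 genes, without entries for Ctgf and Thbs1. In the 250 bases before the start site, GGAATG on either strand occurred in 6 of these 8 genes (Yap1, Wwtr1, Cyr61, Amotl2, Crim1 and Ankrd1), against 12.6% of all 32851 windows of that length. Nt5e and Piezo1 held none. The 8 genes had 9 windows, while the share counts windows. Most members were chosen as known targets of YAP and TAZ, so their count is not independent of the motif. The windows of Cyr61, a widely used YAP reporter gene, and of Crim1, which rose in the cKO, are shown 5′ to 3′ on the gene's strand with the motif, or its reverse complement CATTCC, in capitals.
Cyr61 (chr3:145649986-145650235, minus strand): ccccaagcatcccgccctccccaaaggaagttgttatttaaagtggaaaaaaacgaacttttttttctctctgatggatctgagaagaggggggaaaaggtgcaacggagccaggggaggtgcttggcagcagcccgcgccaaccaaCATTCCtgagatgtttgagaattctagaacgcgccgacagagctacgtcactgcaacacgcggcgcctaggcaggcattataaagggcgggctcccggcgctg
Crim1 (chr17:78199998-78200247, plus strand): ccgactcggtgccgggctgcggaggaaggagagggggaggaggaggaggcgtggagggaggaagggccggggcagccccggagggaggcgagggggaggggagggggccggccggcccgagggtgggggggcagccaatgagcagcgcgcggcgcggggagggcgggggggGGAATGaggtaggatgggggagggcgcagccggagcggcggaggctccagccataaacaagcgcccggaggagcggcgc
In Cyr61 the motif began 103 bases before the start site and on the opposite strand, and in Crim1 it began 79 bases before it. The corresponding stretches of the other 4 genes are shown with 12 bases on either side, in the same notation.
Amotl2 (chr9:102717727-102717756, plus strand): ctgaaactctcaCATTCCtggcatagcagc
Yap1 (chr9:8004720-8004749, minus strand): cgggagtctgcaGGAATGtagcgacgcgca
Wwtr1 (chr3:57576029-57576058, minus strand): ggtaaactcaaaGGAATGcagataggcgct
Ankrd1 (chr19:36120037-36120066, minus strand): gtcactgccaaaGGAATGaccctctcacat
Ankrd1 (chr19:36119950-36119979, minus strand): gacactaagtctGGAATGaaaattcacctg
Amotl2 carried the motif at 65 bases, on the opposite strand, Yap1 at 141 and Wwtr1 at 136. Ankrd1 was the member with 2 copies, at 210 and 123 bases. RefSeq and GENCODE place some starts differently: all 250 bases of the Ankrd1 and Nt5e windows and 136 of the Amotl2 window lie in a GENCODE exon, so these windows, though upstream of the RefSeq start, fall inside the gene positions given here. The letters TGANTCA, bound by the AP-1 factors that immediate early genes encode, occurred in none of the 8 genes and in 6.75% of all windows, and the T-box letters AGGTGTGA in none of the 8 and in 1.12% of all windows. A match is a description of letters, and neither binding nor its absence follows from it.

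In the sorted bulk libraries of the Tbx3 cKO at dpc16, Ctgf, Nt5e, Crim1 and Amotl2 rose 1.8- to 3.82-fold over WT dpc16, and none of the other 5 tested members passed the test. The 4 that rose were also separated from WT dpc16 in every library, as the plot of FPKM by library shows. This was 4 of 9 tested members, where 1.23% of the 11497 genes tested were called higher. YAP and TAZ themselves and the secreted targets with the highest FPKM, Cyr61 and Thbs1, did not pass.

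**Figure D1:**
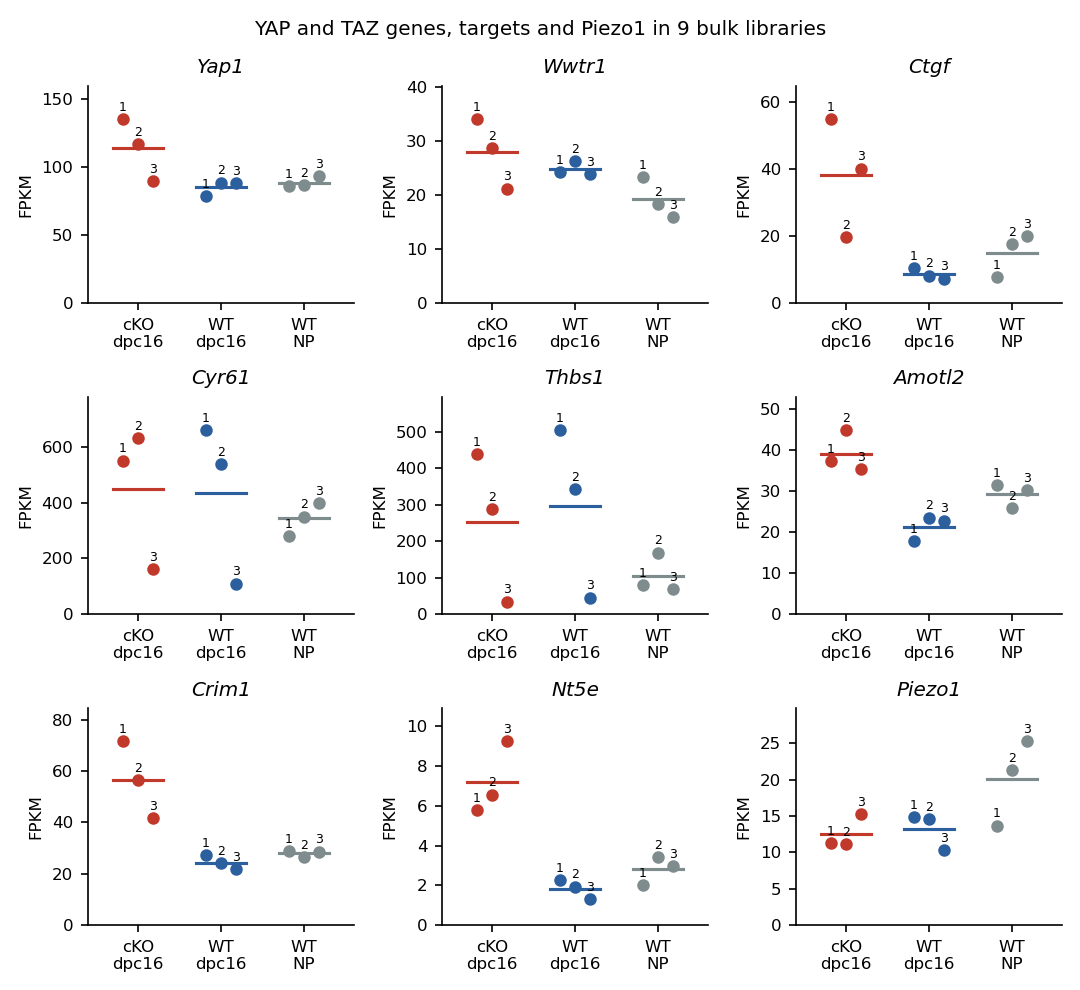
FPKM of 9 members in each bulk library, in cKO dpc16, WT dpc16 and WT NP; points are libraries with their column number, and lines are group means of 3. In Ctgf, Amotl2, Crim1 and Nt5e all 3 cKO points lie above all 3 WT dpc16 points, while in Cyr61 and Thbs1 library 3 of both dpc16 groups lies far below libraries 1 and 2.

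Ctgf (also Ccn2; mm10 chromosome 10, 24595442 to 24598683, plus strand) encodes a secreted matricellular protein that binds integrins and growth factors and is a classical YAP target. It had 54.9, 19.7 and 40.1 FPKM in cKO, against 10.4, 8.11 and 7.22 FPKM in WT dpc16 and 7.61, 17.5 and 19.9 FPKM in WT NP. The lowest cKO library was thus above all 3 WT dpc16 libraries but next to the highest WT NP library. Ctgf rose by 1.93 ± 0.40 (log2 change ± SE on the log2(FPKM + 1) scale; limma, adjusted p = 0.0419) in cKO over WT dpc16. The log2 change in cKO over WT NP was 1.28 ± 0.40 and did not pass (limma, adjusted p = 0.0902).

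Nt5e (mm10 chromosome 9, 88327197 to 88372092, plus strand) encodes CD73, a membrane-anchored enzyme that makes adenosine outside the cell. It was the lowest of the tested members, with 5.78, 6.56 and 9.26 FPKM in cKO, 2.26, 1.92 and 1.28 FPKM in WT dpc16 and 2.02, 3.41 and 2.96 FPKM in WT NP. All 3 cKO libraries stood above the other 6. Nt5e rose by 1.53 ± 0.26 on the log2 scale in cKO over WT dpc16 (limma, adjusted p = 0.0194), and by 1.11 ± 0.26 over WT NP (limma, adjusted p = 0.0389). At this level the added pseudocount of 1 FPKM shrinks the fold, and the ratio of mean FPKM was 3.95 in cKO over WT dpc16.

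Crim1 (mm10 chromosome 17, 78200248 to 78376592, plus strand) encodes a transmembrane protein that binds bone morphogenetic proteins. It had 71.7, 56.5 and 41.6 FPKM in cKO, 27.1, 24.2 and 21.7 FPKM in WT dpc16 and 28.9, 26.4 and 28.6 FPKM in WT NP. The WT groups lay within a narrow band and every cKO library lay above it. Crim1 rose by 1.16 ± 0.20 on the log2 scale in cKO over WT dpc16 (limma, adjusted p = 0.0202) and by 0.96 ± 0.20 over WT NP (limma, adjusted p = 0.0267).

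Amotl2 (mm10 chromosome 9, 102716672 to 102733418, plus strand) encodes an angiomotin-family junction protein that binds YAP and restrains it. It had 37.2, 44.8 and 35.3 FPKM in cKO, 17.8, 23.5 and 22.8 FPKM in WT dpc16 and 31.4, 25.8 and 30.2 FPKM in WT NP. The 3 groups did not overlap, with cKO highest and WT dpc16 lowest. Amotl2 rose by 0.85 ± 0.17 on the log2 scale in cKO over WT dpc16 (limma, adjusted p = 0.0381), and its change over WT NP was 0.41 ± 0.17 (limma, adjusted p = 0.181).

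These 4 calls were close to the threshold. With every gene above 0 in at least 1 library in the fit, none of the 4 passed (limma, adjusted p = 0.0511 to 0.108), and with the 2 dpc16 groups fitted alone Nt5e was the 1 that passed. Leaving out cKO library 1, or any 1 of the 3 WT dpc16 libraries, left 0 of the 4 past the threshold, leaving out cKO library 2 left 1 and leaving out WT NP library 2 left 2, while every log2 change stayed above 0. The lowest changes under any alternative were 1.58 for Ctgf and 0.83 for Nt5e, both with a pseudocount of 5 FPKM, and 0.97 for Crim1 and 0.73 for Amotl2, each with 1 library left out.

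Yap1 (mm10 chromosome 9, 7931999 to 8004596, minus strand) had 135, 117 and 89.6 FPKM in cKO, 78.7, 88.5 and 88.1 FPKM in WT dpc16 and 86.0, 86.9 and 93.3 FPKM in WT NP. All 3 cKO libraries were above WT dpc16, the lowest by about 1 FPKM. The log2 change in cKO over WT dpc16 was 0.40 ± 0.16 and did not pass the test (limma, adjusted p = 0.237). Groups apart in this direction were seen for 5 of 9 members, the 4 called ones and Yap1, and for 13.3% of all genes tested. Wwtr1 (mm10 chromosome 3, 57455649 to 57575910, minus strand) had 34.1, 28.7 and 21.2 FPKM in cKO, 24.3, 26.2 and 23.9 FPKM in WT dpc16 and 23.4, 18.3 and 15.9 FPKM in WT NP. Its cKO libraries spanned the WT dpc16 ones, with a log2 change of 0.14 ± 0.20 (limma, adjusted p = 0.779). Yap1 was thus several times as abundant as Wwtr1 on the FPKM scale in every bulk library.

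Cyr61 and Thbs1 varied more within a dpc16 group than between groups. Cyr61 (also Ccn1; mm10 chromosome 3, 145646976 to 145649981, minus strand), a secreted relative of Ctgf and an early target of YAP, had 551, 631 and 161 FPKM in cKO, 661, 538 and 109 FPKM in WT dpc16 and 281, 350 and 399 FPKM in WT NP. Thbs1 (mm10 chromosome 2, 118111876 to 118127133, plus strand), which encodes the matrix glycoprotein thrombospondin-1, had 438, 289 and 33.8 FPKM in cKO, 505, 343 and 45.2 FPKM in WT dpc16 and 78.9, 168 and 68.1 FPKM in WT NP. Library 3 of each dpc16 group was the low one for both genes, below all 3 WT NP libraries. The changes in cKO over WT dpc16 were 0.18 ± 0.66 for Cyr61 and -0.29 ± 1.02 for Thbs1 on the log2 scale, and neither passed (limma, adjusted p = 0.935 and 0.932). Without library 3 of both dpc16 groups, a choice made after these values were seen, the change of Cyr61 in cKO over WT dpc16 was -0.02.

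The immediate early genes, a list of 16 genes such as Fos that cells switch on within minutes of a stimulus, were low in those same libraries. Their mean log2(FPKM + 1) was 9.42, 8.60 and 7.76 in cKO, 9.02, 8.56 and 6.50 in WT dpc16 and 7.60, 7.81 and 7.94 in WT NP. Fos had 6050, 4386 and 1922 FPKM in cKO, 4948, 3481 and 713 FPKM in WT dpc16 and 2406, 2475 and 3378 FPKM in WT NP. Cyr61 and Thbs1 both stood in the order of that mean within WT dpc16, as the plot of members beside the immediate early genes shows. In cKO Thbs1 did and Cyr61 did not, being higher in library 2 than in library 1, and in WT NP Cyr61 did and Thbs1 did not. Junb, listed at 0 in cKO library 2 and WT NP library 2, possibly a failed estimate, entered the mean as 0 and lowers it there. The order of libraries by that mean within cKO and WT NP may therefore not hold, and the covariate used below carries the same 0. The log2 changes of the immediate early genes in cKO over WT dpc16 were above 0 in 15 of 16, with a median of 0.62, against 50.8% of all genes and an overall median of 0.01, and none was called in either direction. Whether a stimulus during isolation entered these values was not tested. With that mean as a covariate, an alternative added after seeing the data, the changes in cKO over WT dpc16 were 1.80 for Ctgf (limma, adjusted p = 0.0646), 1.501 for Nt5e (adjusted p = 0.0331), 1.04 for Crim1 (adjusted p = 0.0237) and 0.88 for Amotl2 (adjusted p = 0.0472).

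**Figure D2:**
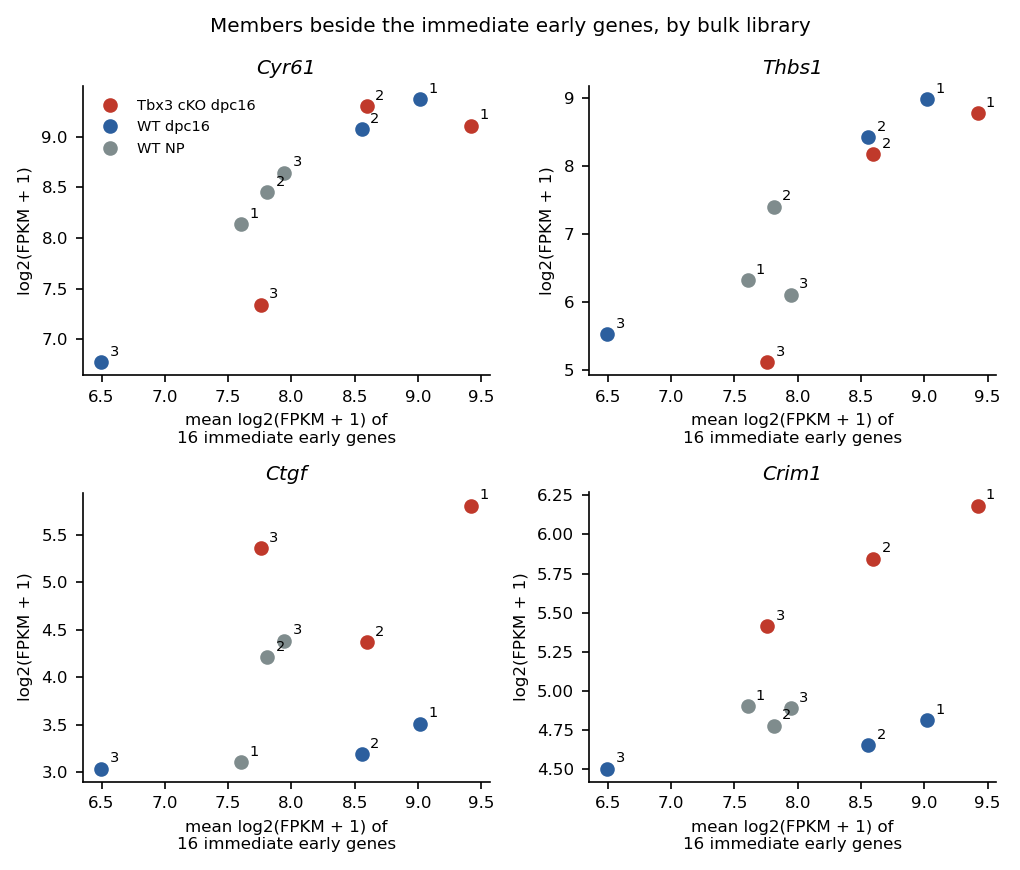
log2(FPKM + 1) of Cyr61, Thbs1, Ctgf and Crim1 in each bulk library (y axis) against the mean log2(FPKM + 1) of 16 immediate early genes in that library (x axis), with the column number beside each point. For Cyr61 and Thbs1 the low points are library 3 of both dpc16 groups, whereas for Ctgf and Crim1 the cKO points lie above the WT dpc16 points over the whole range of the x axis that both groups share. The mean includes Junb also in the libraries where its listed value may be a failed estimate.

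Piezo1 (mm10 chromosome 8, 122481698 to 122551329, minus strand) encodes a cation channel opened by membrane tension. It had 11.2, 11.2 and 15.3 FPKM in cKO, 14.8, 14.5 and 10.3 FPKM in WT dpc16 and 13.7, 21.3 and 25.3 FPKM in WT NP. The dpc16 groups overlapped throughout, with a log2 change of -0.07 ± 0.25 in cKO over WT dpc16 (limma, adjusted p = 0.935). Ankrd1 (mm10 chromosome 19, 36111961 to 36120099, minus strand), a YAP target known mainly from heart and vascular cells, was listed at 0 in all 9 libraries. A 0 in this table can be a failed estimate, since Junb was also listed at 0 in cKO library 2 and WT NP library 2.

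Pregnancy alone left no member past the threshold. In WT dpc16 against WT NP, 0 of 9 members were called (limma), where 0.13% of all genes were called, and 1 member, Amotl2, had an unadjusted p under 0.05, where 9.05% of all genes did. Amotl2 was lower in WT dpc16 in every library, with a log2 change of -0.44 ± 0.17 (limma, adjusted p = 0.452). Wwtr1 lay higher in every WT dpc16 library (0.37 ± 0.20, limma, adjusted p = 0.640), and groups apart in either direction were seen for 15.6% of all genes. The changes of the rest were -0.65 ± 0.40 for Ctgf, -0.43 ± 0.26 for Nt5e, -0.20 ± 0.20 for Crim1, -0.54 ± 0.25 for Piezo1, -0.06 ± 0.16 for Yap1, -0.01 ± 0.66 for Cyr61 and 1.04 ± 1.02 for Thbs1. The 95% range implied by these errors spans more than a doubling either way for Cyr61 and Thbs1, so a change of that size was not detectable here. Since Ctgf, Amotl2, Crim1 and Nt5e were lower in mean in WT dpc16 than in WT NP, and that group is also the one cKO is set against, the comparisons share libraries and their opposite signs are not independent.

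Set against WT NP, the cKO libraries had 2 of 9 members called higher, Crim1 and Nt5e, where 2.76% of all genes were called higher. Neither passed without cKO library 1, without cKO library 2, where Ctgf did, or without any 1 of the WT NP libraries. Without cKO library 3, or WT dpc16 library 1 or 2, Crim1 passed and Nt5e did not. Yap1 changed by 0.34 ± 0.16 and Wwtr1 by 0.51 ± 0.20 (limma, adjusted p = 0.239 and 0.164). Piezo1 changed by -0.61 ± 0.25 (limma, adjusted p = 0.172). This comparison mixes genotype and pregnancy, which cannot be told apart in it.

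**Figure D3:**
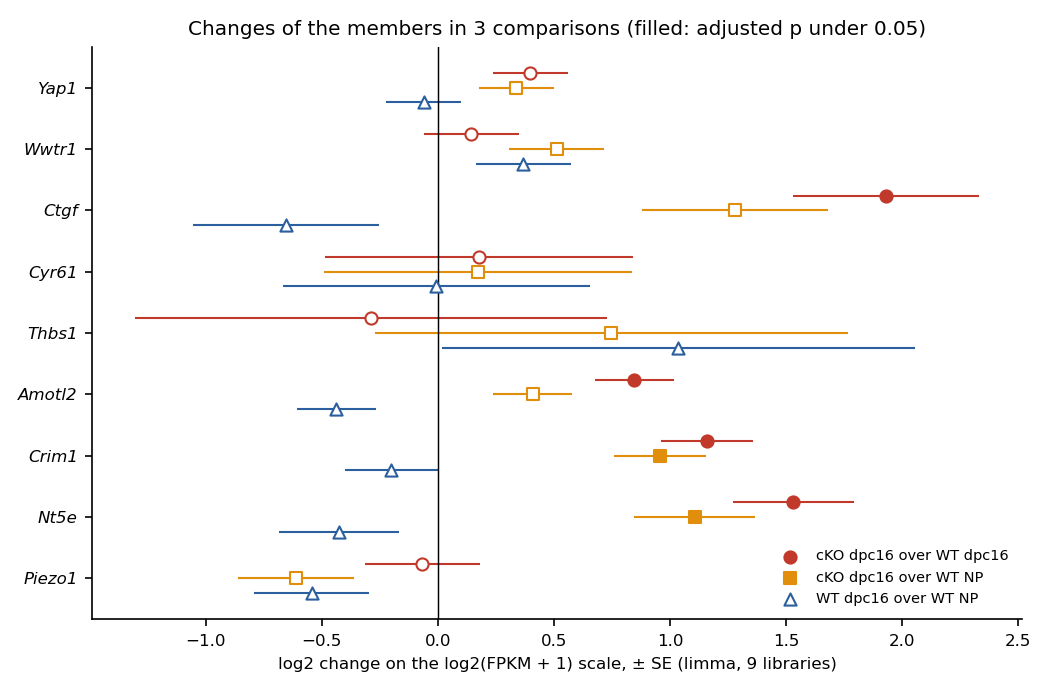
log2 change ± SE of each tested member (rows) in cKO dpc16 over WT dpc16, cKO dpc16 over WT NP and WT dpc16 over WT NP; filled symbols have an adjusted p under 0.05. The filled symbols are Ctgf, Amotl2, Crim1 and Nt5e in cKO over WT dpc16 and Crim1 and Nt5e in cKO over WT NP, and the comparisons share groups.

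Other lists of pathway genes are given as counts, to be read beside all genes tested in cKO over WT dpc16, of which 50.8% had a log2 change above 0, 1.23% were called higher and 0.922% were called lower. Of 16 other known YAP and TAZ targets, 10 had a log2 change above 0 in cKO over WT dpc16 (8 with quantile normalization), with a median of 0.06, and the 1 called gene fell. That gene was Igfbp3, which encodes an insulin-like growth factor binding protein, with 112, 122 and 170 FPKM in cKO against 427, 311 and 406 FPKM in WT dpc16, a change of -1.502 ± 0.18 (limma, adjusted p = 0.00608). Of 19 Hippo kinases and adaptors, 7 had a log2 change above 0, and 1 was called lower, Nf2. Nf2, which encodes Merlin, an activator of the Hippo kinases, had 26.5, 28.9 and 28.3 FPKM in cKO against 49.4, 42.7 and 44.9 FPKM in WT dpc16, a change of -0.69 ± 0.14 (limma, adjusted p = 0.0389). Of 11 YAP and TAZ partners and anchors, 6 had a log2 change above 0, and 1 was called lower, Ywhaz. Ywhaz encodes a 14-3-3 protein that holds phosphorylated YAP in the cytoplasm, and it fell by 0.56 on the log2 scale (limma, adjusted p = 0.0450).

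Among cytoskeletal genes, all 12 genes of the SRF and MRTF axis, a parallel route from actin to transcription, had a log2 change below 0 in cKO over WT dpc16, with a median of -0.26 (all genes, 0.01; all 12 also below 0 with quantile normalization), and 1 of them, Cnn2, was called. Cnn2, which encodes a calponin, had 42.7, 39.5 and 54.1 FPKM in cKO against 103, 88.6 and 99.3 FPKM in WT dpc16 (-1.09 ± 0.18, limma, adjusted p = 0.0172). Of 15 actomyosin genes, 6 had a log2 change above 0, and of the 9 below 0 the test called 2, where 0.922% of all genes were called lower: Cfl1, encoding the actin-severing protein cofilin (-0.59 ± 0.12, limma, adjusted p = 0.0332), and Lima1, encoding an actin-bundling protein (-0.64 ± 0.14, limma, adjusted p = 0.0476). Of 14 focal adhesion genes, 7 had a log2 change above 0, none was called by limma, and 0 had an unadjusted p under 0.05, where 17.4% of all genes did. None of 6 other mechanosensitive channels was called either, with Trpm7 at 0.64 ± 0.25 and Tmem63a at 0.38 ± 0.17 (limma, adjusted p = 0.225 and 0.288); 1 of the 6 had an unadjusted p under 0.05.

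Single-cell data placed the targets in different cells of the epidermis. Levels are given in CPM, the UMIs of a gene per 1000000 UMIs of the cells named, over the 4 libraries together, with an exact Poisson 95% interval that covers counting error only. Cells were clustered here without the authors' annotation, and classes were named from marker genes, so names are approximate. The clustering used these genes among others, and no test follows from a class level. As the plot of levels by cell class shows, Ctgf, Nt5e and Crim1 were highest in bulge and outer root sheath-like cells of the hair follicle, Cyr61 in those and in basal interfollicular-like cells, Thbs1 in basal cells, and Amotl2, Wwtr1 and Piezo1 in granular-like cells of the upper epidermis.

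**Figure D4:**
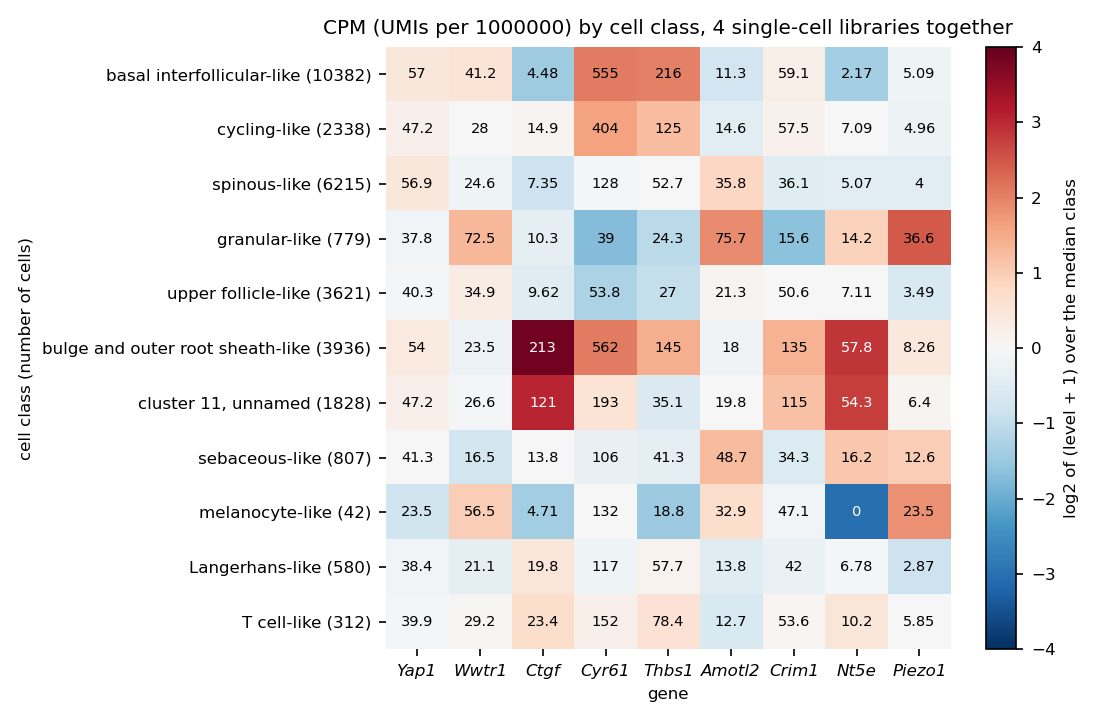
CPM of each member (columns) in 10 named cell classes and 1 unnamed cluster (rows, with numbers of cells), 4 single-cell libraries together; colour is the log2 of the level plus 1 over the median of the rows. Ctgf stands at 213 in bulge and outer root sheath-like cells and 4.48 in basal interfollicular-like cells, and Yap1 is the most even column.

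Ctgf stood at 213 CPM (206 to 220) in the 3936 bulge and outer root sheath-like cells, against 4.48 (3.91 to 5.10) in the 10382 basal interfollicular-like cells. Langerhans-like and T cell-like cells, which should lack it, had 19.8 (15.6 to 24.8) and 23.4 (17.2 to 31.0), so the basal level was below that of cells taken here as background. The next highest group was an unnamed cluster led by Aspn and Pthlh (1828 cells), with 121 (114 to 129). The marker list that scored best in this cluster was also that of bulge and outer root sheath. A Ctgf molecule was seen in 45.7% of bulge and outer root sheath-like cells and 1.92% of basal cells, and with every cell thinned to 2000 UMIs in 30.4% and 0.722%, at median depths of 3842 and 4428 UMIs.

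Nt5e had a similar distribution, with 57.8 (54.4 to 61.5) CPM in bulge and outer root sheath-like cells, 54.3 (49.6 to 59.3) in the Aspn and Pthlh cluster and 2.17 (1.78 to 2.62) in basal cells. Its basal level was below the 6.78 (4.43 to 9.94) of Langerhans-like cells. Crim1 was less restricted, with 135 (130 to 141) in bulge and outer root sheath-like cells, 115 (108 to 122) in the Aspn and Pthlh cluster, 59.1 (56.97 to 61.2) in basal cells and 15.6 (13.5 to 18.05) in granular-like cells. T cell-like and Langerhans-like cells had 53.6 (44.04 to 64.6) and 42.0 (35.8 to 49.0) of Crim1, so the basal interval overlapped that of T cell-like cells. Across the 21 clusters of 50 or more cells, the log2 level of Ctgf correlated with that of Nt5e (r = 0.92) and Crim1 (r = 0.66); clusters share libraries and depth, and no test is attached. The genes most like Ctgf over all 23 clusters were Fzd2, Grem1 and Tgm5 (r = 0.96, 0.96 and 0.95), and those most like Nt5e were Sema3e, Grem1 and Tgm5 (r = 0.92 each).

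Bulge markers were therefore read in the bulk libraries beside the rise of these genes. The 9 bulge and outer root sheath markers summed to 499 to 681 FPKM in cKO, 426 to 495 FPKM in WT dpc16 and 484 to 1309 FPKM in WT NP. In cKO the larger part of each sum came from Krt17, which is also on the upper follicle list, and Dkk3 together. Of the 7 that could be tested, 5 had a log2 change above 0 in cKO over WT dpc16, with a median of 0.37, and none was called. Col6a1 and Postn had lower means in cKO (11.3 and 82.5 FPKM) than in WT dpc16 (29.0 and 133 FPKM). Fst had a higher one (67.2 against 33.1 FPKM). Markers of the upper follicle (8 of 9 above 0, median 0.60) and of Langerhans cells (5 of 5, median 0.47; 3 of 5 with quantile normalization) were likewise mostly above 0, and none was called. Cd34 had 0.785, 0.890 and 2.23 FPKM in cKO, against 0.270, 0.566 and 2.09 FPKM in WT dpc16 and 0.571, 0 and 0.481 FPKM in WT NP. Of the genes most like Ctgf and Nt5e across clusters, Fzd2 changed by -0.38, Tgm5 by -0.31 and Grem1 by 0.02 in cKO over WT dpc16, and Sema3e by 1.04 (limma, adjusted p = 0.513, 0.665, 0.991 and 0.0706). WT NP library 3 had the highest bulge sum, with Ctgf at 19.9 FPKM and Nt5e at 2.96 FPKM. Its upper follicle and sebaceous sums, 3754 and 1125 FPKM, were also the highest of all libraries, so its bulge sum does not single out bulge cells. More follicle cells in the cKO sort and more RNA of these genes per cell, or fewer cells and less RNA, cannot be told apart in bulk samples, and the part of the follicle markers was not tested.

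Markers of dermal cells gave no common direction. The 7 fibroblast markers summed to 17.8 to 36.4 FPKM in cKO, 83.6 to 95.7 FPKM in WT dpc16 and 72.6 to 97.5 FPKM in WT NP. Nearly all of this was Sparc, and the other 6 markers averaged under 1 FPKM. Sparc, the 1 fibroblast marker tested, changed by -1.68 in cKO over WT dpc16 and was called lower (limma), where 0.922% of all genes were. In the single cells Sparc was also among the leading genes of cluster 1, which is bulge and outer root sheath-like. The smooth muscle and pericyte sum was 22.3 to 45.7 FPKM in cKO, 5.2 to 7.1 FPKM in WT dpc16 and 13.3 to 20.2 FPKM in WT NP. Mcam made up most of it in both dpc16 groups, with 26.0, 44.1 and 19.6 FPKM in cKO, 4.88, 2.99 and 4.43 FPKM in WT dpc16 and 8.11, 9.74 and 6.35 FPKM in WT NP. Acta2 was at 0.451 to 0.793 FPKM in cKO, 1.07 to 1.25 FPKM in WT dpc16 and 4.91 to 8.95 FPKM in WT NP, and Myh11 was at or near 0 in all 9 libraries. Of the 3 smooth muscle and pericyte markers tested in cKO over WT dpc16, 1 was called higher (limma), where 1.23% of all genes were. Endothelial markers summed to at most 4.4 FPKM in any library, with 2 of 6 at 0 throughout.

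Amotl2, Piezo1 and Wwtr1 were highest in the most differentiated class. For Piezo1 and Wwtr1 that interval overlapped the one of the 42 melanocyte-like cells (23.5, 7.64 to 54.9 and 56.5, 29.2 to 98.7 CPM). Amotl2 had 75.7 (70.8 to 80.8) CPM in granular-like cells, 48.7 (43.0 to 54.8) in sebaceous-like cells, 35.8 (34.3 to 37.3) in spinous-like cells and 11.3 (10.4 to 12.3) in basal cells. Its basal interval overlapped those of Langerhans-like cells (13.8, 10.4 to 18.1) and T cell-like cells (12.7, 8.27 to 18.6). Piezo1 had 36.6 (33.3 to 40.2) in granular-like cells and 5.09 (4.49 to 5.76) in basal cells, and its 4.003 in spinous-like cells was no higher than the basal level. T cell-like and Langerhans-like cells had 5.85 (3.02 to 10.2) and 2.87 (1.43 to 5.14) of Piezo1, and both intervals overlapped the basal one. Wwtr1 had 72.5 (67.8 to 77.5) in granular-like cells and 41.2 (39.4 to 43.0) in basal cells. T cell-like and Langerhans-like cells had 29.2 (22.3 to 37.6) and 21.1 (16.8 to 26.3) of Wwtr1, both intervals below the basal one. The 24.6 of Wwtr1 in spinous-like cells lay between these. Yap1 was even, at 56.97 (54.9 to 59.1) in basal cells, 56.9 (55.0 to 58.8) in spinous-like cells and 37.8 (34.4 to 41.5) in granular-like cells, where only the last interval stands apart. Langerhans-like and T cell-like cells had 38.4 (32.4 to 45.1) and 39.9 (31.8 to 49.6) of Yap1. Both intervals overlapped the granular-like one and lay below the basal and spinous-like ones. In the bulk libraries the spinous markers summed to 3298 to 4712 FPKM in cKO, 4980 to 14019 FPKM in WT dpc16 and 7830 to 9307 FPKM in WT NP, and the granular markers to 39.7 to 66.0 FPKM in cKO, 32.3 to 44.1 FPKM in WT dpc16 and 44.6 to 55.7 FPKM in WT NP. Their part in the rise of Amotl2 was not tested.

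Cyr61 and Thbs1 divided the basal cells. Both are among the genes that lead basal clusters, Cyr61 in cluster 0 and Thbs1 in cluster 7, so their levels there describe the clusters and are no finding. Cyr61 had 746 and 932 CPM in clusters 0 and 7, against 129 and 171 in clusters 5 and 6. Thbs1 had 151 and 590 in clusters 0 and 7, against 28.2 and 39.2 in clusters 5 and 6. Langerhans-like and T cell-like cells had 117 and 152 CPM of Cyr61 and 57.7 and 78.4 of Thbs1. Clusters 5 and 6 thus lay below both of these background classes for Thbs1 and near them for Cyr61. The sum of 16 immediate early genes followed the same split, at 16773 and 26049 CPM in clusters 0 and 7 and 2865 and 4279 in clusters 5 and 6. Fos and Dusp1 are among the leading genes of cluster 0 and Atf3 of cluster 7, so this sum likewise describes the clusters. Across clusters of 50 or more cells, the levels of Cyr61 and Thbs1 correlated with r = 0.90, and each was the other's nearest or second nearest gene.

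Across the states of pregnancy, each library is 1 sample, so differences below are sizes with counting intervals and carry no test. A gene is called higher or lower at a state where its ratio to NP was at least 1.5 in either direction and the intervals were apart. In all kept cells, Ctgf stood at 36.9 CPM at NP, 14.8 at dpc16, 32.0 at dpp6 and 45.0 at dpp40. Nt5e stood at 12.8 at NP, 4.94 at dpc16, 17.7 at dpp6 and 14.2 at dpp40. Both were lower at dpc16 than at NP, with ratios of 0.402 and 0.387, where 9.28% of genes with enough counts were called lower. Thbs1 stood at 56.6 at NP, 98.5 at dpc16, 114 at dpp6 and 109 at dpp40, a ratio of 1.74 at dpc16, where 2.31% of genes were called higher. Cyr61 stood at 165 at NP, 222 at dpc16, 321 at dpp6 and 348 at dpp40, and it and Thbs1 were called higher at dpp6 (1.94 and 2.01) and dpp40 (2.11 and 1.92), where 4.82% and 1.73% of genes were.

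The makeup of the libraries differed beside these values, and its part in them was not tested. Bulge and outer root sheath-like cells were 10.4% of kept cells at NP, 5.04% at dpc16, 19.8% at dpp6 and 9.72% at dpp40, and basal interfollicular-like cells 18.8%, 40.0%, 19.7% and 26.1%. Within bulge and outer root sheath-like cells Ctgf stood at 229 (212 to 247) at NP, 176 (162 to 191) at dpc16, 160 (151 to 169) at dpp6 and 319 (302 to 336) at dpp40, and no state passed the ratio of 1.5 to NP. Nt5e within these cells stood at 60.1 (51.5 to 69.7) at NP, 32.5 (26.7 to 39.2) at dpc16, 68.4 (62.5 to 74.7) at dpp6 and 58.1 (51.2 to 65.7) at dpp40. At dpc16 it was 0.540 of NP, where 4.76% of genes counted in these cells were called lower. Crim1 kept 118 to 141 CPM in these cells in all 4 libraries.

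**Figure D5:**
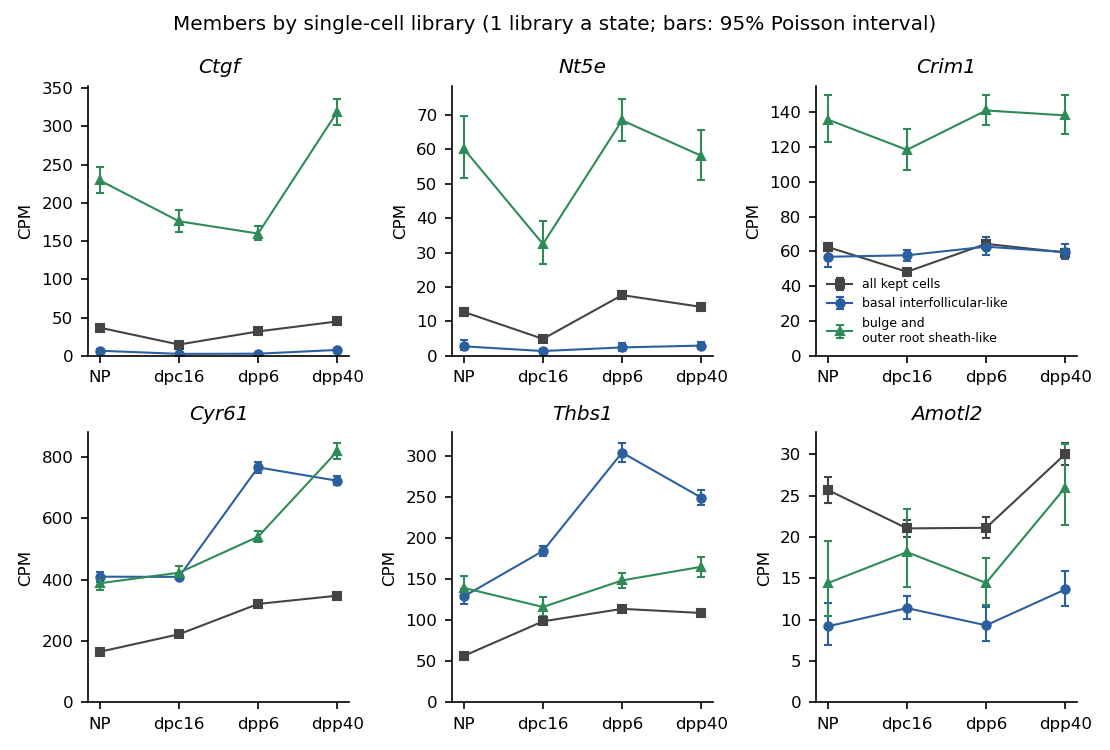
CPM of 6 members in NP, dpc16, dpp6 and dpp40, in all kept cells, basal interfollicular-like cells and bulge and outer root sheath-like cells; bars are exact Poisson 95% intervals, and each state is 1 library. Nt5e in bulge and outer root sheath-like cells is lowest at dpc16 (32.5), and Cyr61 and Thbs1 in basal cells are highest at dpp6 (767 and 304).

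In basal interfollicular-like cells Cyr61 stood at 410 (394 to 427) CPM at NP, 409 (401 to 418) at dpc16, 767 (749 to 785) at dpp6 and 723 (708 to 738) at dpp40. Thbs1 stood at 129 (120 to 138) at NP, 184 (179 to 190) at dpc16, 304 (293 to 315) at dpp6 and 249 (240 to 258) at dpp40. Both were called higher after birth, with ratios to NP of 1.87 and 2.36 at dpp6 and 1.76 and 1.93 at dpp40, where 3.82% and 2.37% of genes were called higher. The sum of 16 immediate early genes was 10999 CPM at NP, 12023 at dpc16, 16225 at dpp6 and 16650 at dpp40 in the same cells, and their part in these differences was not tested. Cluster 6 is nearly all from the dpc16 library (2101 of 2292 cells), and without it Thbs1 in basal cells was 2.04 times NP at dpc16. Cyr61 without it was 1.33 times NP at dpc16 (557 and 419 CPM), which did not pass the ratio of 1.5. The ratio of Cyr61 at dpp6 over dpc16 was 1.87 with cluster 6 and 1.43 without it. Yap1 stayed between 55.9 and 60.8 and Wwtr1 between 38.1 and 46.6 in basal cells, with no state past the ratio of 1.5.

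Other classes shared part of this pattern. In spinous-like cells Thbs1 stood at 29.0 at NP, 50.8 at dpc16, 82.7 at dpp6 and 50.9 at dpp40, and Crim1 at 45.3, 29.4, 38.1 and 38.0. In the Aspn and Pthlh cluster the ratio of Cyr61 to NP was 1.59 at dpc16, 1.87 at dpp6 and 2.01 at dpp40, while that of Ctgf was 0.522 at dpc16 and 0.532 at dpp6. Amotl2 and Piezo1 passed the ratio of 1.5 to NP in no library over all kept cells. Ankrd1 had 5 UMIs in all, every one at dpp6 and in the same melanocyte-like cell (2.38% of 42). It had 0 UMIs at NP, dpc16 and dpp40, which allows up to 0.0754, 0.0404 and 0.0479 CPM.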

How the data were processed

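Bulk values are FPKM in a table the authors deposited. Per the submitters' processing notes the tools were Cufflinks 2.2.1 with Cuffdiff, TopHat2 and cutadapt 1.14 on build mm10. The deposited single-cell matrices hold UMI counts, and Cell Ranger 2.2.0 is the tool in the same notes. Library preparation was stranded per the labels' protocols, while strand setting, annotation and depth of the FPKM values are not stated there. Genes averaging 1 FPKM or more over the 9 libraries (11497) were tested on log2(FPKM + 1) with limma 3.58.1 in R 4.3.3, as 3 group means over 9 libraries with a trend and Benjamini-Hochberg adjustment at 0.05. The pseudocount shrinks folds of low genes. The fit was tested on simulated data.

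Barcodes with 200 or more genes and no more than 10% of UMIs from mitochondrial genes were kept. They were clustered with scanpy 1.11.5 (2000 variable genes, 30 components, 15 neighbours) and leidenalg 0.10.2 at resolution 1, with no integration. Scrublet marked 0 cells in every library, so it cannot be said to have worked, and doublets remain. Genes counted for single-cell shares had at least 200 UMIs over the libraries compared.

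All 10 members are named. From other lists at most 4 called genes are named by smallest p, otherwise at most 2. Sparc, Mcam, Acta2, Myh11, Cd34, Col6a1, Postn, Fst, Krt17, Dkk3, Itga6, Junb, Fos and the genes like Ctgf and Nt5e were added for their relevance beside a member. Members and lists were chosen with earlier results of these data known. Positions are from GENCODE M21 and upstream sequences from RefSeq (GRCm38.p6).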

Additional observations from a re-analysis of the deposited data

Results flagged for a closer look

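Thbs1 at dpp6 over dpc16 passed the ratio of 1.5 in opposite directions in different cell classes. The ratio was 1.63 in spinous-like cells (82.7 and 50.8 CPM) and 0.603 in upper follicle-like cells (25.6 and 42.5 CPM). In basal interfollicular-like cells it was 1.65 (304 and 184 CPM), but different clusters hold these cells in the 2 libraries: without cluster 6, nearly all of it dpc16 cells, it was 1.17 (319 and 272 CPM) and did not pass. Each state is 1 library, and the difference between classes was not tested.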

How the results depend on the processing

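In cKO over WT dpc16 the changes of Ctgf, Nt5e, Crim1 and Amotl2 kept their sign under every alternative run, and their calls did not. Called members numbered 4, and 0 without the filter on low FPKM, 1 with the 2 groups fitted alone and, in alternatives added after seeing the data, 1 without library 3 of every group or of both dpc16 groups. Called genes numbered 247, and 87 without the filter, 118 with 2 groups alone and 134 without libraries 3 of the dpc16 groups. In cKO over WT NP, members numbered 2, and 0 without the filter, 1 with a filter at 5 FPKM, 0 with 2 groups alone, 0 with the immediate early covariate; genes numbered 651, and 314, 167 with 2 groups alone and 275 with the covariate. In WT dpc16 over WT NP, 15 genes became 9 without the filter. The cause was not tested.

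Leaving out 1 library gave 0 to 4 called members and 41 to 406 genes in cKO over WT dpc16, 0 to 2 members and 118 to 736 genes in cKO over WT NP, and 5 to 15 genes in WT dpc16 over WT NP. In cKO over WT dpc16 the change ran from -0.64 to 0.80 for Cyr61, -1.35 to 0.83 for Thbs1, -0.23 to 0.019 for Piezo1 and -0.0050 to 0.33 for Wwtr1. Cyr61 ran from -0.19 to 0.79 in cKO over WT NP and from -0.49 to 0.81 in WT dpc16 over WT NP.

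Cyr61 also turned sign in WT dpc16 over WT NP with a pseudocount of 5 FPKM (0.00091), quantile normalization (0.037), without library 3 of every group (0.93) and without those of the dpc16 groups (0.81). In cKO over WT dpc16 it was -0.43 with the covariate and -0.016 in both cases without libraries 3; in cKO over WT NP it was -0.68, and Thbs1 -0.53, with the covariate.

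With a replicate block by column number, called members were 2 in cKO over WT dpc16 and 1 in cKO over WT NP. Deviations of same-numbered libraries correlated with r of 0.31, 0.07 and 0.36 between cKO and WT dpc16, and 5 of these 6 libraries matched their own number best. The labels tie no number to a shared animal or day, and r was -0.21 to 0.04 against WT NP, so the numbers were not used as pairs. At Leiden resolution 0.5 the class levels were 188 for Ctgf in bulge and outer root sheath-like cells, 545 for Cyr61 and 212 for Thbs1 in basal cells. The bulge and outer root sheath-like class there also held the cluster led by Aspn and Pthlh (1750 cells), which was left unnamed at resolution 1, so the sets of cells differ. Depth is unknown for FPKM, and single-cell states rest on 1 library each.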
